A study of Mus musculus with 40 samples.

Results

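Medium spiny neurons are the projection neurons of the striatum, and 9 genes known to mark them (Drd1, Drd2, Adora2a, Ppp1r1b, Tac1, Pde10a, Pde1b, Rgs9 and Gng7) were followed in the whole brain of adult mice. The members were every array probe annotated with 1 of these symbols. The array carried 12 such probes for 8 of the 9 genes, out of 25697 probes in all. Adora2a had no probe under that symbol in the annotation used and was not analysed here. Of the 12 probes, 10 were above background, defined below, as were 14381 of the 25697. The 2 others were dim Gng7 probes that exceeded it on 1 and 0 of the 40 arrays.

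The animals were male C57BL/6J offspring of dams that ate low-fat food (LF) or high-fat food (HF) from before mating through pregnancy and nursing. Each offspring ate LF or HF food from weaning on. Whole-brain RNA was hybridised to Illumina bead arrays, 1 array per animal, so that 40 arrays fell into 4 groups of 10. In a group's name the diet of the dam stands first and that of the offspring second (LF_LF, LF_HF, HF_LF and HF_HF). Both maternal diets had 6 breeding cages, 12 in all, of which 5 gave offspring to each post-weaning diet. The labels give no engineered allele and no drug for any group, and all 4 shared the strain, the sex and the tissue.

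Medium spiny neurons are GABAergic and make up most striatal neurons. They form a direct pathway, whose cells carry the D1 dopamine receptor and make substance P, and an indirect pathway, whose cells carry the D2 dopamine receptor and the adenosine receptor encoded by Adora2a. Dopamine raises cAMP through the first receptor and lowers it through the second, and both arms act on the phosphatase inhibitor DARPP-32, the product of Ppp1r1b. Without Adora2a, Drd2 was the sole measured member of the indirect pathway. Since the striatum is a small piece of a whole brain, fewer of these cells, less RNA per cell and a different share of striatum in the sample cannot be told apart in these data.

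Promoter sequences of the pathway markers are shown because these genes moved together across animals, as described below. They are the 200 bases before a RefSeq transcript start (GRCm38.p6), written 5′ to 3′ on the gene's strand, for the 3 pathway markers measured. The core of the cAMP response element (TGACG on either strand, read as CGTCA on the other) is in capitals. Drd1 had 2 starts, and the most upstream was used. The annotated Drd2 gene begins at 49340360, inside the window shown, so part of that window lies within the gene.
Drd1, chr13:54055659-54055858, minus strand: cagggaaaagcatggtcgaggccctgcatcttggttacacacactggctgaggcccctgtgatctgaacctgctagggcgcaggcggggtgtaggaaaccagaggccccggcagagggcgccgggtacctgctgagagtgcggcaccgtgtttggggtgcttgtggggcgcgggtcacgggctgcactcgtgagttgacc
Tac1, chr6:7554861-7555060, plus strand: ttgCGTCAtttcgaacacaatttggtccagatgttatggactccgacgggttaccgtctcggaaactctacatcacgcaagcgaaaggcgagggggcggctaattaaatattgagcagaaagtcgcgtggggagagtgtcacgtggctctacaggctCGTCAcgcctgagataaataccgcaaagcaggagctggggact
Drd2, chr9:49340203-49340402, plus strand: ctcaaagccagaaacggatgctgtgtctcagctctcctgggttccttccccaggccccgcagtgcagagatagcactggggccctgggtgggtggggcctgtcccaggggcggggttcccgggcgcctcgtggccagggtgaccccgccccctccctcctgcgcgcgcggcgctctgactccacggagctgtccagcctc
The core stood 2 times in the Tac1 window and 0 times in those of Drd1 and Drd2. Of 32851 promoters in the same table, 15.7% held it in a window of this length. The GC box (GGGCGG on either strand) was found 2 times before Drd2, 1 time before Tac1 and 0 times before Drd1, against 31% of all promoters holding at least 1. RefSeq windows were at hand for 7 of the 9 genes, and these matches describe the letters alone.

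The markers differed in how far they stood above background. Intensities, the brightness of a probe on the deposited scale, are given as log2, and background was the 95th percentile of 1340 probes for chemosensory receptors, which lay at an intensity of 81.6 to 90.9 per array. The brightest probe of each of the 8 genes exceeded it on 40 of 40 arrays, with mean log2 values of 7.66 for Pde10a to 12.06 for Pde1b. Pde10a and Drd2 were the dimmest, and their intensities fell to 119.1 and 116.3 in the lowest HF_HF animals. Since no background was subtracted, the SDs and differences of these genes may be compressed by the floor. Across the whole array the deposited columns had nearly the same distribution, and 5 arrays correlated less well with the rest (2 in LF_LF, 2 in HF_LF and 1 in HF_HF).

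The markers spread widely among animals of the same group. Rgs9, a regulator that shortens G protein signalling and is enriched in striatum, had a within-group SD of 0.90 on the log2 scale, larger than that of 99.2% of the probes above background. Drd1 had an SD of 0.72, Ppp1r1b of 0.73 and Tac1 of 0.69. Gng7, a G protein gamma subunit, had 0.53 and Drd2 had 0.51. The phosphodiesterases Pde10a and Pde1b, which break down cyclic nucleotides, had 0.47 and 0.45. The SD of Pde1b, the smallest of the 8, still exceeded that of 94.3% of probes, for which the median was 0.17. From the lowest to the highest of 40 animals the intensity of Rgs9 spanned 8.52-fold, that of Drd1 5.92-fold and that of Pde10a 2.94-fold.

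**Figure D1:**
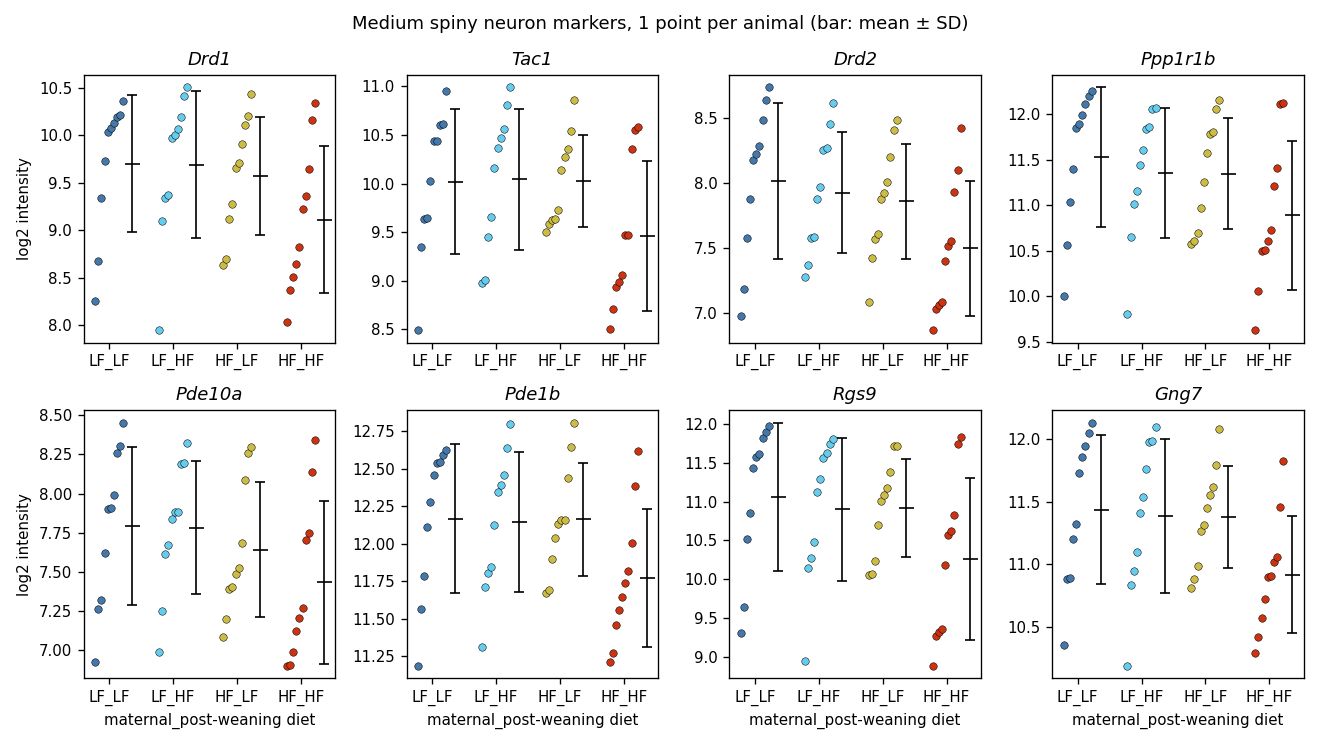
Log2 intensity of the brightest probe of each of 8 markers, with 1 point per animal in 4 diet groups of 10, sorted within the group, and the mean ± SD at the right of each. The groups overlap for every marker, and the HF_HF means are the lowest (Drd1 9.11 ± 0.77 against 9.57 to 9.70 in the others).

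Drd1, the receptor of the direct pathway, ran in LF_LF animals from 8.26 to 10.36 with a median of 10.05. LF_HF animals ran from 7.94 to 10.51 with a median of 9.99, and HF_LF animals from 8.63 to 10.43 with a median of 9.68. HF_HF animals ran from 8.04 to 10.34 with a median of 9.02. The lowest animal of all was thus in LF_HF, but the middle of the HF_HF group lay below that of the other 3, and all groups overlapped. The means were 9.70 ± 0.72 (SD, n = 10), 9.69 ± 0.77, 9.57 ± 0.62 and 9.11 ± 0.77 in that order.

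Tac1, the precursor of substance P, ran from 8.49 to 10.96 in LF_LF (median 10.23) and from 8.98 to 10.99 in LF_HF (median 10.26). It ran from 9.51 to 10.86 in HF_LF (median 9.94) and from 8.50 to 10.58 in HF_HF (median 9.26). The HF_LF group was the narrowest, and its lowest animal stood above 7 of the 10 HF_HF animals. The means were 10.02 ± 0.75, 10.04 ± 0.73, 10.03 ± 0.47 and 9.46 ± 0.77.

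Drd2, the receptor of the indirect pathway, ran from 6.97 to 8.74 in LF_LF (median 8.20) and from 7.28 to 8.62 in LF_HF (median 7.92). It ran from 7.08 to 8.48 in HF_LF (median 7.90) and from 6.86 to 8.43 in HF_HF (median 7.46). The lowest 4 HF_HF animals lay below every LF_HF animal, while the highest was near the top of that group. The means were 8.02 ± 0.60, 7.93 ± 0.47, 7.86 ± 0.44 and 7.50 ± 0.52.

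Among the signalling proteins downstream of the receptors, Ppp1r1b had means of 11.53 ± 0.77 in LF_LF, 11.35 ± 0.72 in LF_HF, 11.35 ± 0.61 in HF_LF and 10.89 ± 0.82 in HF_HF. Its HF_HF animals ran from 9.62 to 12.13 and its LF_HF animals from 9.81 to 12.07, so that the ranges nearly coincided and the medians, 10.66 and 11.53, did not. Rgs9 ran from 8.88 to 11.84 in HF_HF (median 10.38) and from 8.94 to 11.81 in LF_HF (median 11.21), with means of 10.26 ± 1.05 and 10.90 ± 0.92. Gng7 had the median 10.90 in HF_HF against 11.38 to 11.53 in the other groups. The medians of Pde1b were 11.69 in HF_HF and 12.14 to 12.37 elsewhere, and those of Pde10a were 7.24 in HF_HF and 7.50 to 7.90 elsewhere. Each of the 5 signalling genes therefore had its lowest group median in HF_HF, as did the 3 pathway markers.

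Whether the mother's diet was linked to the markers in offspring fed the HF diet was asked by comparing HF_HF with LF_HF. The 8 measured markers were all lower in HF_HF, by a median of 0.46 on the log2 scale, against a median of -0.02 over all probes above background, of which 57.8% were lower. None passed the test: in limma the adjusted p was 0.853 for each of the 8, and 0 of 14381 probes were called (a share of 0%). A regularised t-test, in which the variance borrows from probes of similar level, also called 0, and 637 probes had an unadjusted p below 0.05 in limma, 462 of them lower. Of the markers, 2 of 8 were lower with an unadjusted p below 0.05, against 3.21% of all probes. The 8 markers varied together from animal to animal, so these are far from 8 separate results.

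In this comparison Drd1 differed by -33.1%, a log2 difference of -0.58 with a 95% interval of -1.24 to 0.07, and 8 of 10 HF_HF animals were below the LF_HF mean. Tac1 differed by -33.2% (-0.58, -1.22 to 0.05), with 7 of 10 animals below. Drd2 differed by -25.8% (-0.43, -0.85 to -0.01), also with 7 of 10 below. The 3 intervals overlapped widely, from both pathways. Gng7 differed by -0.47 (-0.93 to -0.003), Rgs9 by -0.64 (-1.47 to 0.20) and Ppp1r1b by -0.46 (-1.12 to 0.19). Pde1b differed by -0.37 (-0.77 to 0.02) and Pde10a by -0.35 (-0.76 to 0.05). Of these intervals, only those of Drd2 and Gng7 excluded 0, before any adjustment for the number of probes. All of them take the animals as independent, although animals shared cages. Each cage had 1 maternal diet, and 8 cages held the animals of this comparison. With the cage as a random term the median of the 8 differences was -0.46, a value that does not bear on the width of the intervals.

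The probes of one gene did not all show it. For Ppp1r1b the middle probe differed by -0.16 with an SE of 0.22, and the third probe, with a mean intensity of 101 close to background, by -0.03 with an SE of 0.06. That dim probe had an SD of 0.14 among animals, so its own values barely varied.

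**Figure D2:**
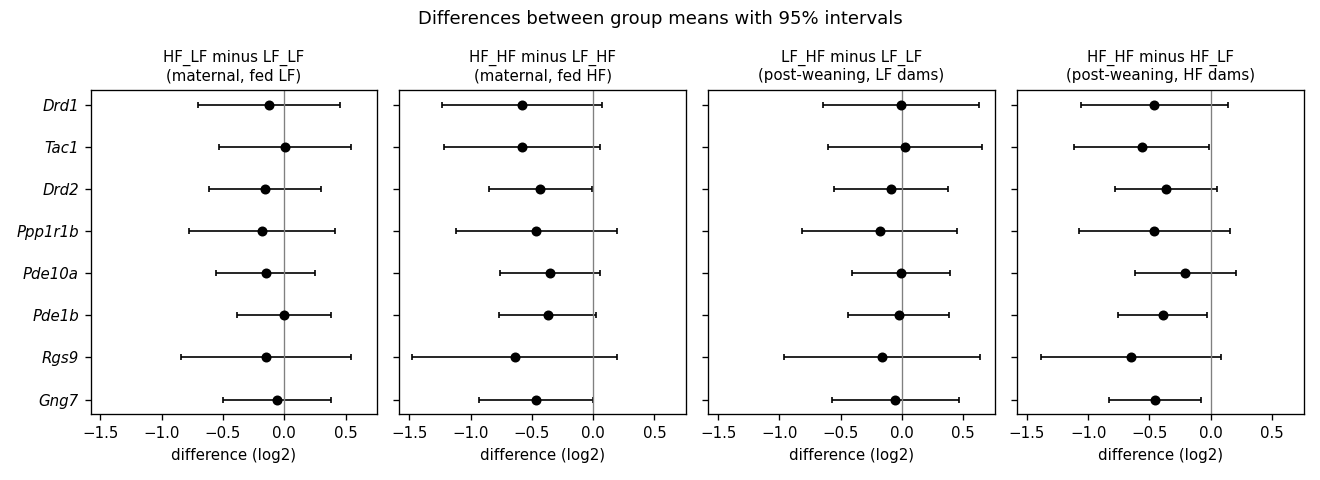
Difference between group means on the log2 scale (points) with unadjusted 95% intervals (bars) for 8 markers in 4 comparisons of 10 against 10 animals. Both comparisons with HF_HF have all 8 points below 0, with medians of -0.46 and -0.46, and the comparisons without it lie near 0, with medians of -0.14 and -0.04.

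The post-weaning diet in offspring of HF dams was examined by setting HF_HF against HF_LF, a comparison that shares the HF_HF animals with the previous one. All 8 markers were lower in HF_HF, with a median of -0.46 against 0.005 over all probes, of which 46.9% were lower. The differences were -0.65 for Rgs9 (SE 0.35), -0.56 for Tac1 (SE 0.26), -0.46 for Drd1 (SE 0.29) and -0.36 for Drd2 (SE 0.20). They were -0.46 for Gng7 (SE 0.18) and -0.39 for Pde1b (SE 0.17), and 8 of 10 HF_HF animals lay below the HF_LF mean for each. No marker passed in limma (adjusted p = 1.00 for each), where 0% of probes were called, 173 probes had an unadjusted p below 0.05 and the regularised t-test called 0. Of the 8 markers, 3 (Gng7, Pde1b and Tac1) were lower with an unadjusted p below 0.05, against 0.459% of all probes. The 173 probes are fewer than a threshold of 0.05 gives by chance over 14381 probes, so this share is a low reference. The 3 markers also varied together from animal to animal and are not 3 separate results. With the cage as a fixed term, in which 3 cages holding 13 animals of both diets carry the comparison, the 8 differences ran from -0.46 to -0.06 with a median of -0.24. Without the 5 arrays that correlated less well the median was -0.37. Other regions moved beside the markers here too. Lower in HF_HF than in HF_LF were 8 of 8 thalamic genes (median -0.42, mean level per animal 8.01 to 10.17 against 7.97 to 10.18), 7 of 8 hypothalamic genes (median -0.26, 6.57 to 9.68 against 6.79 to 9.37) and 8 of 8 oligodendrocyte genes (median -0.12, 10.57 to 11.99 against 10.67 to 11.94), while 7 of 8 cortical genes were higher (median 0.17, 9.02 to 10.07 against 9.34 to 9.87). The hypothalamic, thalamic and cortical lists include dim genes, such as Hcrt, Lef1 and Neurod1. These exceeded background on 3, 4 and 5 of 10 HF_HF arrays in that order. No gene of these lists passed in limma, and their part in the values of the markers was not tested.

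The 2 comparisons without HF_HF gave values near 0. HF_LF minus LF_LF, the maternal diet in offspring fed LF, ran from -0.18 for Ppp1r1b to 0.01 for Tac1, with 7 of 8 markers lower and a median of -0.14. LF_HF minus LF_LF, the post-weaning diet in offspring of LF dams, ran from -0.18 for Ppp1r1b to 0.03 for Tac1, again with 7 of 8 lower and a median of -0.04. These share the LF_LF animals. Neither direction was stable: leaving out 1 cage moved the first median from -0.27 (without cage 1) to 0.06 (without cage 8). With the cage as a fixed term, carried by 2 cages with 10 animals, 0 of 8 differences between LF_HF and LF_LF were below 0, and their median was 0.13. The intervals were wide: that of Drd1 was -0.71 to 0.45 in the first and -0.65 to 0.63 in the second, so a difference as large as the one between HF_HF and LF_HF lay inside both. In limma 0% of probes were called in each, and in the regularised t-test 0, with 198 and 793 probes at an unadjusted p below 0.05. None of the 8 markers was among them.

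The difference between the diet effects was tested directly as the interaction of maternal and post-weaning diet over all 40 arrays. It was below 0 for 8 of 8 markers, from -0.59 for Tac1 (SE 0.42) to -0.20 for Pde10a (SE 0.29), with a median of -0.39 against -0.02 over all probes. No marker passed in limma (adjusted p = 0.998, unadjusted p from 0.166 to 0.533), 0% of probes were called, and 138 had an unadjusted p below 0.05. The regularised t-test was not run for it. A dependence of one diet's difference on the other diet was therefore not shown for any of these genes.

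The balance of the 2 pathways was described by the mean of Drd1 and Tac1 minus Drd2 in each animal, centred on 0 over the 40 animals. It was taken from whole-brain RNA, in which the cells that made each transcript were not resolved. It averaged -0.04 ± 0.19 in LF_LF, 0.06 ± 0.36 in LF_HF, 0.06 ± 0.31 in HF_LF and -0.09 ± 0.25 in HF_HF. The groups overlapped, and each mean lay within 1 SD of every other. The within-group SD of this balance was 0.28, against 0.60 for the mean of the 8 markers, so that animals differed in the common level more than in the balance. The 2 are not independent: Drd2 had a smaller SD (0.51) than Drd1 (0.72) and Tac1 (0.69), so the balance can fall when all markers fall. The lowest balance, -0.70, belonged to an LF_HF animal with a common level of 8.93. The highest, 0.61, belonged to an LF_HF animal with a common level of 10.80. How far the common level shaped the group means of the balance was not tested. The common level averaged 10.22 ± 0.66, 10.15 ± 0.61, 10.11 ± 0.47 and 9.67 ± 0.64 in the same order of groups. Of the 10 animals with the lowest common level, 5 were in HF_HF, 2 in LF_LF, 2 in HF_LF and 1 in LF_HF. Of the 10 highest, 1 was in HF_HF, 4 were in LF_LF, 3 in LF_HF and 2 in HF_LF.

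Markers of both pathways varied together. After the group means were subtracted, Drd1 and Drd2 correlated over the 40 animals with Pearson's r = 0.886 and Spearman's rho = 0.885. For Drd1 and Tac1, both of the direct pathway, r was 0.820 and rho 0.846, and for Drd2 and Tac1 r was 0.872 and rho 0.878. Thus the pair from the same pathway was no closer than the pairs from different ones, a difference that was not tested. By r, the closest of 28 pairs were Drd1 and Rgs9 (r = 0.980, rho = 0.970) and the least close Ppp1r1b and Tac1 (r = 0.760, rho = 0.795). By rho, the closest were Drd1 and Ppp1r1b (0.972) and the least close Tac1 and Pde10a (0.791). The median over the 28 pairs was 0.890 for r and 0.893 for rho, and each pair had a two-sided permutation p of 1e-05 for both (adjusted p = 1e-05), the smallest that 100000 resamples can give. The permutation takes animals as independent, although some shared a cage.

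These correlations did not rest on a few animals. Without the 2 animals farthest from the median of the first gene, r ran from 0.740 to 0.975 over the 28 pairs. Within single groups of 10 it ran from 0.662 to 0.989. With the cage mean subtracted the median r was 0.882, and without the 5 arrays that correlated less well it was 0.910. All points share the array and its normalisation.

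**Figure D3:**
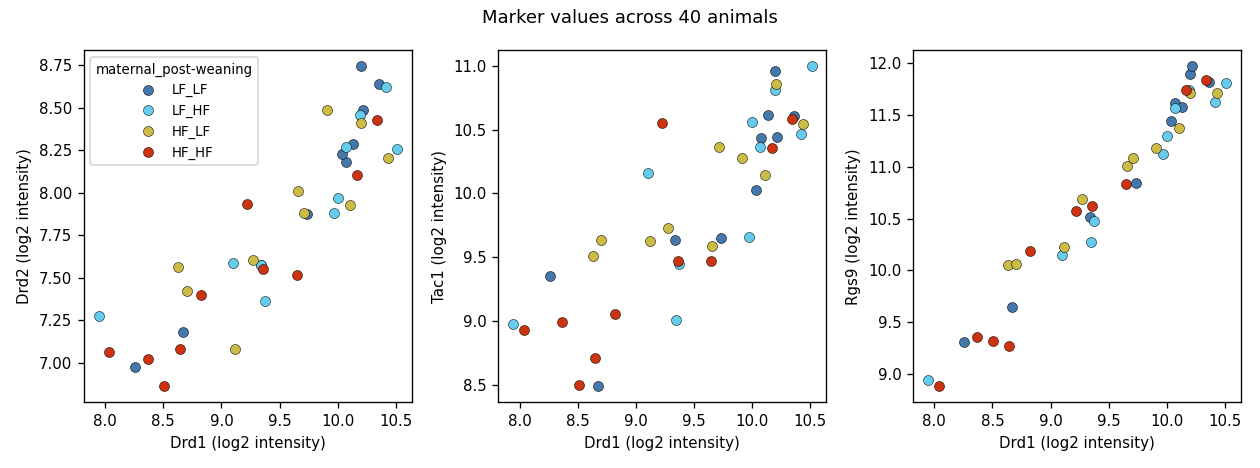
Log2 intensity of Drd2, Tac1 and Rgs9 (vertical axes) against Drd1 (horizontal axes), 1 point per animal, coloured by group, n = 40. The points rise together in every panel, with r = 0.886, 0.820 and 0.980 after subtraction of the group means.

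Much of the spread was found among animals of one cage: the SD of Drd1 was 0.81 within the 17 sets that share a cage and a group, against 0.72 within groups, and that of Rgs9 was 1.00 against 0.90. In HF_HF, Drd1 ran from 8.37 to 10.34 among the 3 animals of cage 21 and from 8.04 to 10.17 among the 3 of cage 23. In LF_HF it ran from 7.94 to 10.00 among the 3 of cage 11. Cages could also be tight, as cage 8 of LF_LF, whose 3 animals lay between 10.04 and 10.20. Wide cages occurred under both maternal diets.

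**Figure D4:**
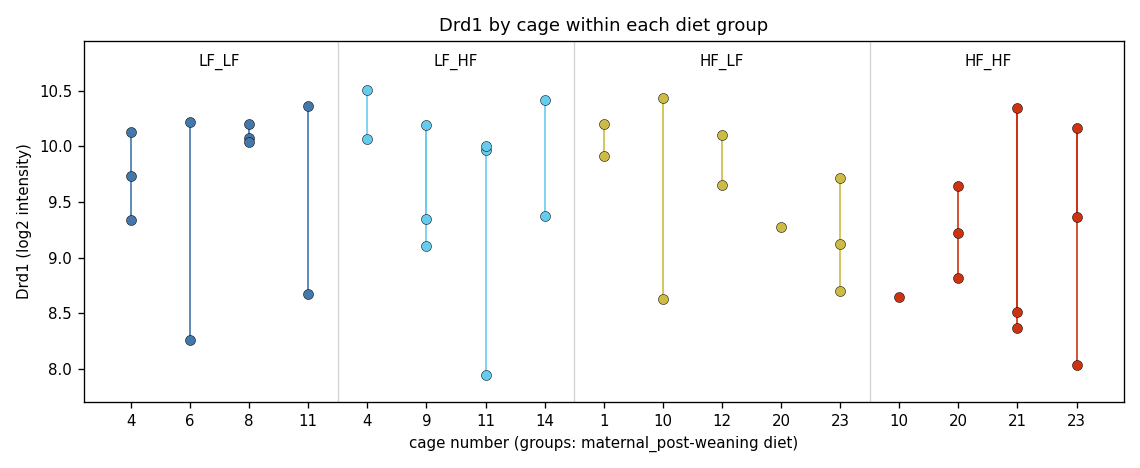
Drd1 log2 intensity of each animal, with animals of one cage and group joined by a line, for the 4 diet groups. The line of cage 21 in HF_HF spans 8.37 to 10.34, and that of cage 8 in LF_LF spans 10.04 to 10.20.

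Of 9937 genes, 144 (1.45%) correlated above 0.5 with the mean of the standardised markers over the 40 animals after subtraction of the group means, and the median r was -0.02. The 10 genes most like it were Rarb (r = 0.961), Ido1 (0.960), Rxrg (0.954), Serpina9 (0.941), Scn4b (0.939), Sh3rf2 (0.936), Ptprv (0.932), Gpr6 (0.929), Syndig1l (0.923) and Actn2 (0.916). Rarb and Rxrg encode retinoid receptors, Scn4b a sodium channel beta subunit and Gpr6 a receptor known from indirect-pathway neurons. Of these 10, 7 were on the lists of other striatal genes used here. Those lists were chosen with earlier results of these data known, so the overlap is not independent support. In HF_HF minus LF_HF they ran from -0.57 for Ido1 and Syndig1l to -0.27 for Actn2, with adjusted p = 0.853 in limma for each.

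Other genes of the same neurons were read from lists. Of 18 further medium spiny neuron genes, 12 were above background, and 12 of 12 were lower in HF_HF than in LF_HF, with a median of -0.25 and 0 called. The 3 with the smallest unadjusted p were Rxrg (-0.38, SE 0.19), Syndig1l (-0.57, SE 0.30) and Rarb (-0.36, SE 0.21). Among further direct-pathway genes 4 of 5 were lower, with a list median of -0.09. Isl1, a transcription factor of these cells, differed by -0.68 (SE 0.35) and Pdyn, the precursor of dynorphin, by -0.34 (SE 0.21). Sfxn1 differed by -0.09 (SE 0.06), and the remaining genes by -0.007 and 0.02. For the indirect pathway Gpr6 differed by -0.28 (SE 0.16) and Sp9 by -0.12 (SE 0.11). Both were dim: Gpr6 exceeded background on 6 of 10 HF_HF and 7 of 10 LF_HF arrays, and Sp9 on 4 and 6, so these differences are limited by the floor. Penk, the enkephalin precursor, was not analysed here. No gene of these lists passed.

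Further genes of dopamine and cAMP signalling, some of them striatal and most of them widely expressed, lay on both sides of 0. Of 15 such genes 13 were above background, and 7 were lower and 6 higher in HF_HF than in LF_HF, with a median of -7.03e-05. Gnal, which encodes the G protein alpha subunit that couples the D1 receptor to adenylyl cyclase, differed by 0.05 (SE 0.06), but its mean intensity of 90.3 in HF_HF and 87.8 in LF_HF was at background, so that little can be read from it. Adcy5, the main striatal adenylyl cyclase, was below background. The smallest unadjusted p were those of Ppp1ca, a catalytic subunit of the phosphatase that DARPP-32 inhibits (-0.12, SE 0.06), Cdk5 (-0.10, SE 0.08) and Gnb5, the partner of Rgs9 (-0.09, SE 0.08). Of the other receptors, Oprk1, the kappa opioid receptor, differed by -0.23 (SE 0.06, unadjusted p = 0.000755, adjusted p = 0.853 in limma). Tacr1, the receptor of substance P, differed by -0.22 (SE 0.10) and Tacr3 by -0.08 (SE 0.12). All 3 were dim, and in HF_HF they exceeded background on 6, 8 and 7 of 10 arrays in that order. Drd3, Drd4 and Drd5 were below background.

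Markers of other regions and cell types moved beside the striatal ones. In HF_HF against LF_HF, 8 of 8 hypothalamic genes were lower (median -0.42), with a mean level per animal of 6.57 to 9.68 in HF_HF and 6.74 to 9.43 in LF_HF. Also lower were 7 of 8 thalamic genes (median -0.16, 8.01 to 10.17 against 8.06 to 10.16) and 8 of 8 oligodendrocyte genes (median -0.10, 10.57 to 11.99 against 10.88 to 11.89). All 5 blood genes were lower (median -0.34, 7.64 to 8.52 against 8.00 to 9.11), 4 of them with an unadjusted p below 0.05, against 3.21% of all probes. The blood, hypothalamic and thalamic counts include dim genes and are limited by the floor. Ngp of the blood list exceeded background on 3 of 10 HF_HF and 9 of 10 LF_HF arrays. Hcrt of the hypothalamic list did so on 3 of 10 and 8 of 10, and Lef1 of the thalamic list on 4 and 7. Higher were 8 of 8 cortical genes (median 0.15, 9.02 to 10.07 against 9.07 to 9.99) and 7 of 7 choroid plexus genes (median 0.22, 6.94 to 9.40 against 6.64 to 9.57). These counts include dim genes too. Neurod1 of the cortical list exceeded background on 5 of 10 HF_HF and 4 of 10 LF_HF arrays. Folr1 of the choroid plexus list did so on 7 and 6. The remaining lists were mixed or closer to 0, with 6 of 8 astrocyte, 6 of 7 microglial, 4 of 5 dopamine neuron, 3 of 6 striatal interneuron, 3 of 5 cerebellar and 1 of 3 olfactory bulb genes lower. Defining markers below background included Neurod6 for cortex, Sim1 for hypothalamus, Pcp2 and Gabra6 for cerebellum and Pitx3 for dopamine neurons. No gene of these lists passed in limma, and their part in the low HF_HF values of the striatal markers was not tested.

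**Figure D5:**
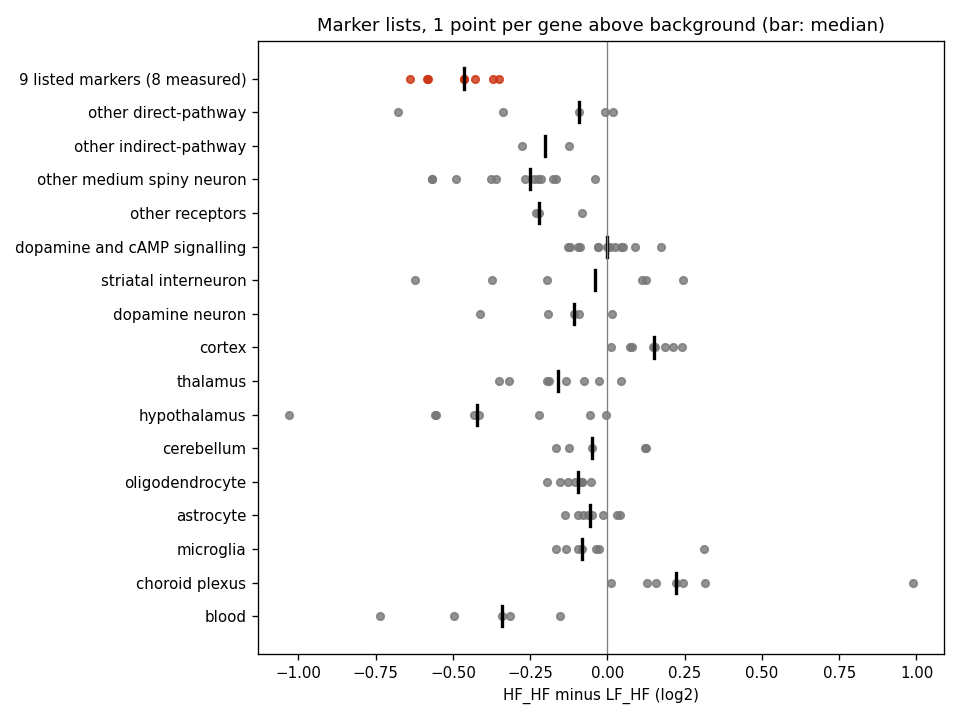
Difference between HF_HF and LF_HF (log2, horizontal axis) for the genes above background in 17 marker lists, 1 point per gene, with the list median as a bar. The striatal markers lie between -0.64 and -0.35, the cortical genes all lie above 0, and no gene passed the test.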

How the data were processed

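Whole-brain RNA of 40 animals (4 groups of 10, by the labels) was hybridised to Illumina MouseRef-8 beadchips. The deposited values were linear fluorescence intensities from BeadStudio (no version given), quantile-normalised across these arrays by the authors and without background subtraction. Once sorted, the columns were within 1.1 units of each other, and the range was 48.4 to 30357.2. Gene symbols came from the array's annotation (23978 probes with a symbol, 1719 without). Values were log2-transformed without an offset. Probes above background (the 95th percentile of 1340 chemosensory receptor probes, median 87) on at least 20 arrays were kept. Quantile normalisation gives every array the same distribution, so a difference is relative to the other probes.

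Pairs of groups were compared in limma 3.58.1 (R 4.3.3) on their 20 arrays, and the interaction on 40 arrays, with empirical Bayes moderation and a trend of variance on level. P-values were adjusted over 14381 probes by Benjamini-Hochberg, with a threshold of 0.05. The fit was tested on simulated data. Arrays have no read depth, and their number limits the precision: the SE of a marker's difference was 0.17 to 0.40 between 2 groups, against a median of 0.07 to 0.08 over all probes. The members, gene lists and tests were chosen with earlier results of these data known. Named were all members, genes of the lists that passed, from the other striatal, signalling and receptor lists the 3 with the smallest p between HF_HF and LF_HF, Penk, Pdyn, Gnal and Adcy5, and the 10 genes most like the members. The brightest probe stood for a gene. Alternatives were cyclic loess, median centring, an offset of 50, other background filters, array weights, the regularised t-test (101 neighbouring probes, prior weight 10), 1 model of all arrays, the mean of a gene's probes, the cage as a random or fixed term, each cage left out, and 5 arrays left out. The alternatives for the interaction were chosen after seeing the data.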

Additional observations from a re-analysis of the deposited data

Results flagged for a closer look

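The balance of the pathways (mean of Drd1 and Tac1 minus Drd2, log2, centred) had 1 animal far from its group: in LF_LF an animal of cage 11 stood at -0.482, and the next lowest at -0.075. The gap was 0.591 of the group's range, above the 95% critical value of Dixon's test for 10 animals. It was 1 of 44 sets of 10 values examined, and chance marks about 1 in 20.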

How the results depend on the processing

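In HF_HF minus LF_HF all 152 marker values under the alternatives were below 0, and their median over the 8 markers ran from -0.61 without cage 11 to -0.36 without cage 4. Such values, here and below, are refits of the same arrays for markers that varied together, so their counts are not counts of separate results. In HF_HF minus HF_LF all 144 were below 0, and the median ran from -0.64 without cage 23 to -0.24 with the cage as a fixed term. No marker passed under any alternative in any comparison. In HF_HF minus HF_LF 1 probe, Ciart, passed under cyclic loess and 1, again Ciart, with array weights, and for the interaction 1 probe (A430078G23Rik) passed with no background filter. For the interaction 159 of 160 values kept their sign, and Pde10a was 0.027 with array weights; the median ran from -0.56 without cage 23 to -0.22 with array weights.

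In HF_LF minus LF_LF 19 of 160 values changed sign, and the median ran from -0.27 without cage 1 to 0.06 without cage 8. Tac1 was -0.14 with array weights, -0.00300 with the cage as a random term and -0.12 without the 5 arrays. Leaving out 1 cage at a time gave -0.25 to 0.045 for Drd1, -0.31 to 0.012 for Drd2, -0.34 to 0.0384 for Ppp1r1b, -0.13 to 0.20 for Tac1, -0.14 to 0.15 for Pde1b, -0.28 to 0.10 for Rgs9 and -0.20 to 0.083 for Gng7. In LF_HF minus LF_LF 26 of 144 changed sign, and the median ran from -0.19 without cage 4 to 0.13 with the cage as a fixed term. Tac1 was -0.00347 under cyclic loess, -0.025 with the cage as a random term and -0.022 without the 5 arrays. With the cage as a fixed term, carried by 2 cages with 10 animals, Drd1 was 0.17, Drd2 0.075, Ppp1r1b 0.049, Tac1 0.45, Pde10a 0.18, Pde1b 0.053, Rgs9 0.21 and Gng7 0.095. Leaving out 1 cage at a time gave -0.14 to 0.16 for Drd1, -0.22 to 0.066 for Drd2, -0.37 to 0.043 for Ppp1r1b, -0.16 to 0.22 for Tac1, -0.21 to 0.10 for Pde10a, -0.10 to 0.092 for Pde1b, -0.40 to 0.088 for Rgs9 and -0.17 to 0.091 for Gng7. The cause of these changes was not tested. No paired analysis was possible because the replicate numbers, given in the order of the samples, pair no animals. The cage, which the labels do give, was fitted as a block only among the alternatives, and the main fits had no cage term.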

Other observations

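The list of striatal interneuron genes was divided in HF_HF against LF_HF, with 3 lower and 3 higher (median -0.04). The 3 lower ones, grouped here after their values were seen, are known from cholinergic interneurons. Chat, which makes acetylcholine, differed by -0.62 (SE 0.20), Slc5a7, the choline transporter, by -0.37 (SE 0.17) and Lhx8, a transcription factor of these cells, by -0.19 (SE 0.11), with an adjusted p of 0.853 in limma for each. Slc5a7 exceeded background on 7 of 10 HF_HF and 10 of 10 LF_HF arrays, and Lhx8 on 5 and 8. Slc18a3, another cholinergic gene of the list, was below background. The higher ones were Sst at 0.24 (SE 0.15), Npy at 0.13 (SE 0.17) and Pvalb at 0.11 (SE 0.17). Over the 40 animals Chat correlated with the mean of the striatal markers with r = 0.829 and rho = 0.829, the 21st closest of 9937 genes. In whole-brain RNA the region that these cholinergic transcripts came from was not resolved.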
